A study of Mus musculus with 9 samples.

Results

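The phase II conjugation enzymes of the mouse kidney were followed across 9 RNA sequencing libraries through the genes of the glutathione S-transferase (GST, and microsomal MGST), UDP-glycosyltransferase (UGT) and cytosolic sulfotransferase (SULT) families. Symbols that begin with Gst, one of the class letters a, k, m, p, t, o or z and a number, or with Mgst, Ugt or Sult and a number, gave 61 genes of the 26139 in the deposited table. These were 23 GST, 3 MGST, 19 UGT and 16 SULT genes. Of them, 45 reached 0.1 FPKM (fragments, scaled by gene length and library depth) in at least 3 libraries and are described here, namely all 23 GST genes with 2 MGST, 13 UGT and 7 SULT genes.

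The GQYS group held 3 libraries from Itgam-IRES-hCD89 mice gavaged daily with GQYS, Gui-qi-yi-shen granules, over 5 months. The IgAN group held 3 libraries from Itgam-IRES-hCD89 mice gavaged with saline, and the WT group held 3 libraries from C57/BL6 wild-type mice that also received saline. Human CD89 is an IgA receptor of myeloid cells, and the knock-in ties it to Itgam, the gene of a myeloid integrin chain, so the locus that drives it is that of a myeloid gene. The table has 0 entries for the human gene, and its expression was not checked. Itgam itself stood at 0.0283 to 0.143 FPKM in GQYS, 0.172 to 0.433 FPKM in IgAN and 0.340 to 0.716 FPKM in WT libraries. The series concerns the action of the granules in IgA nephropathy, a kidney disease with IgA deposits in the glomeruli. The labels give neither age nor sex. They also leave unsaid whether each library is its own animal, and the p-values below therefore refer to library-to-library spread, which may be technical.

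Phase II enzymes attach a polar group to drugs, toxins, steroids and reactive products of lipid oxidation, which makes them more soluble and ready for export. GSTs add glutathione, most UGTs add glucuronic acid from its UDP-bound form, and SULTs add sulfate from the donor PAPS. The proximal tubule is a main site of this chemistry in the kidney and also trims glutathione conjugates to mercapturates, which leave in the urine.

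To show the start regions of abundant members of each family, 300 bases around the transcription start (250 before it and 50 after it) are given 5′ to 3′ from RefSeq, build GRCm38.p6, for Ugt2b38, Gstm1, Sult1d1 and Mgst3. They lie at chr5:87424154-87424453, chr3:108017924-108018223, chr5:87568957-87569256 and chr1:167393792-167394091, in the order of these names, all on the minus strand. Capitals mark matches on either strand to TGACNNNGC (core of the antioxidant response element), GCGTG (core of the xenobiotic response element) and TATAAA (the core promoter box).
Ugt2b38: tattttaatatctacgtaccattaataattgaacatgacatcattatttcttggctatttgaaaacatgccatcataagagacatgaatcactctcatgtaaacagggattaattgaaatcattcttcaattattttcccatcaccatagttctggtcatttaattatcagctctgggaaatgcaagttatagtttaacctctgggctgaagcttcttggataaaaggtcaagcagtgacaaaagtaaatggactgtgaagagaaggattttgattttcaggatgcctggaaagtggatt
Gstm1: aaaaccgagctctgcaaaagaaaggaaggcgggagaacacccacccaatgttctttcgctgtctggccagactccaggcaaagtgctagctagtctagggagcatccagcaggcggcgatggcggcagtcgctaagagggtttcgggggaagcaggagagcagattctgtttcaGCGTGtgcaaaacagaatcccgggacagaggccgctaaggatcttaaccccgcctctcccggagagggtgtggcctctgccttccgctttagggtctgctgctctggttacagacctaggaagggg
Sult1d1: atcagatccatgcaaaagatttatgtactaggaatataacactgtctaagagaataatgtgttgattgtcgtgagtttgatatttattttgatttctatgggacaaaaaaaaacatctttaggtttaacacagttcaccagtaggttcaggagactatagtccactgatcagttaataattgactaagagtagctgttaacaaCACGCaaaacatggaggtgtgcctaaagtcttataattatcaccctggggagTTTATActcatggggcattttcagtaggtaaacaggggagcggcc
Mgst3: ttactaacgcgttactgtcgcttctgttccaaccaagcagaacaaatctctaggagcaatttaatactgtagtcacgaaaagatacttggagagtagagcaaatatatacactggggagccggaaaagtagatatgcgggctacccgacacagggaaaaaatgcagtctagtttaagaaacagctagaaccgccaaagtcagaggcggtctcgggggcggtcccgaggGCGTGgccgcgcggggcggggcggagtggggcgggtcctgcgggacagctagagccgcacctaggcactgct
The Ugt2b38 window held none of these letters, Gstm1 and Mgst3 held GCGTG, and Sult1d1 held GCGTG and a match to TATAAA. That TATAAA match lay 5 bases after the start on the reverse strand, so it is a match of letters only. Start regions were found for 40 of the 61 genes, 51 windows in all, since some genes have several. TGACNNNGC was present in 7.84% of these windows and in 12.4% of all 32851 windows in the RefSeq table, with matches in Gsta3, Gstm5, Gstm7 and Mgst1. GCGTG was present in 25.5% and 32.4%, and TATAAA in 11.8% and 13.6%, of members' and all windows. These shares describe letters only and carry no test.

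Libraries held 30564947 to 38161564 gene-assigned reads, a total worked out from the spacing of low FPKM values. The 15 proximal tubule markers summed to 7288 to 8273 FPKM in GQYS, 7793 to 8304 FPKM in IgAN and 7636 to 8535 FPKM in WT libraries, and all were above 1 FPKM in each library. The 11 tubular injury markers summed to 407 to 573 FPKM in GQYS, 546 to 1369 FPKM in IgAN and 438 to 457 FPKM in WT libraries. The 10 leukocyte markers summed to 44.1 to 54.6 FPKM in GQYS, 84.7 to 121 FPKM in IgAN and 34.8 to 90.0 FPKM in WT libraries. Injury markers thus lay higher in IgAN than in WT libraries without overlap, and their part in the results below was not tested. The first principal component, 41.9% of the variance, set WT replicate 1 and IgAN replicate 1 apart from the rest. Mitochondrially encoded genes took 18.6% of the gene-assigned reads in WT replicate 1 and 7.81 to 13.3% in the others. The injury marker Havcr1 stood at 43.8 FPKM in IgAN replicate 1 and at most 1.79 FPKM in the others.

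Conjugation RNA was concentrated in a few genes. A mean over 9 libraries of at least 100 FPKM was reached by 9 genes, 10 to 100 FPKM by 14, 1 to 10 FPKM by 8, and less than 1 FPKM by 14. All 61 genes together summed to 3062 to 3327 FPKM in GQYS, 2824 to 3109 FPKM in IgAN and 3076 to 3417 FPKM in WT libraries, which overlapped. The described genes span the range from Ugt3a2 at a mean of 770 FPKM down to values near the rule's limit. In the order of mean levels, 44 neighbouring pairs can be formed, and in 3 of them every library of the higher gene lay above every library of the lower one: Ugt2b38 over Gstm1, Gstm1 over Sult1d1 and Mgst1 over Gstm2. For the other neighbours the ranges over 9 libraries overlapped, and no test within libraries was run. In bulk RNA, fewer cells of a type and less RNA per cell cannot be told apart.

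**Figure D1:**
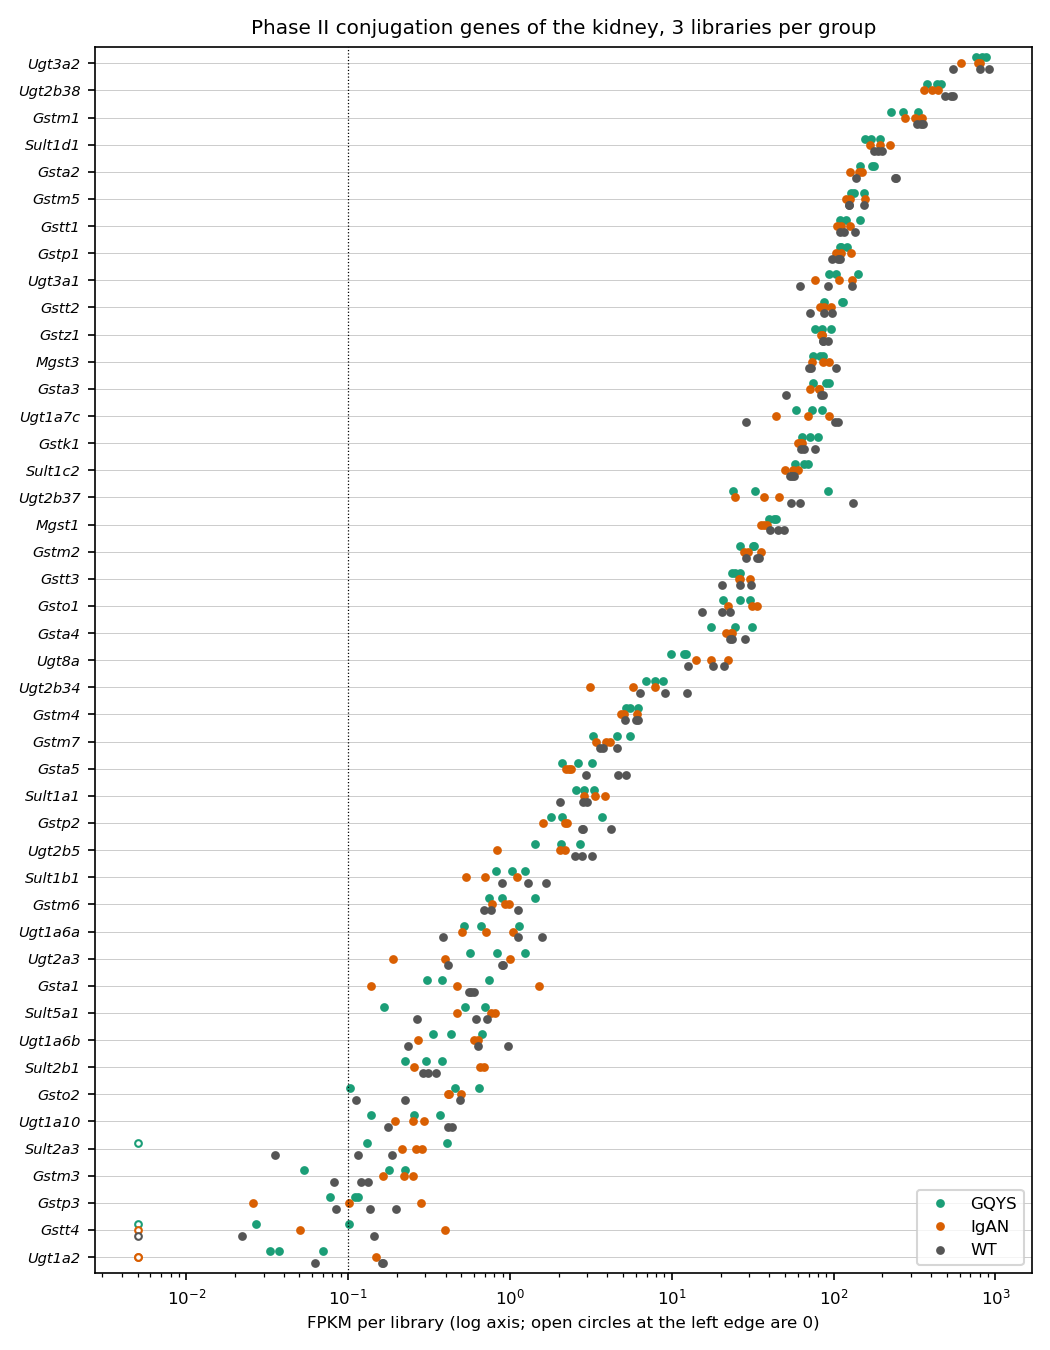
FPKM of the 45 described genes (vertical axis, ordered by mean) in each of 9 libraries on a log axis, coloured by group, with the rule's limit of 0.1 FPKM as a dotted line and open circles for 0. Ugt3a2 (mean 770 FPKM) and Ugt2b38 (mean 451 FPKM) lead, and 14 genes lie under a mean of 1 FPKM.

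Among the GSTs, Gstm1, a mu class enzyme with broad activity toward electrophiles, was the most abundant. It had 332, 227 and 268 FPKM in GQYS libraries, 349, 317 and 276 FPKM in IgAN libraries and 356, 349 and 330 FPKM in WT libraries. The 3 WT libraries were close together, and GQYS replicate 2 was the lowest of all. Gstm1 made up 63.7% of the mu class sum, which was 391 to 530 FPKM in GQYS, 442 to 544 FPKM in IgAN and 493 to 555 FPKM in WT libraries. Next came Gsta2, an alpha class enzyme that also reduces lipid hydroperoxides, with a mean of 171 FPKM.

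Gsta2 had 178, 145 and 173 FPKM in GQYS libraries, 144, 126 and 150 FPKM in IgAN libraries and 243, 137 and 240 FPKM in WT libraries. WT replicates 1 and 3 were high, whereas WT replicate 2 lay inside the range of IgAN. Gstm5 (mu) had a mean of 136 FPKM, Gstt1 and Gstt2 (theta, which also act on small halogenated compounds) 119 and 92.7 FPKM, and Gstp1 (pi) 111 FPKM over 9 libraries. Gstz1, the maleylacetoacetate isomerase of tyrosine breakdown, was the steadiest of the genes at 10 FPKM or more, at 76.9 to 96.0 FPKM in GQYS, 83.1 to 84.9 FPKM in IgAN and 85.5 to 91.7 FPKM in WT libraries. Its coefficient of variation over 9 libraries was 6.23%, against a median of 14.2% for the 23 such genes.

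The other GSTs at this level were Gsta3 (79.1 FPKM), the peroxisomal and mitochondrial Gstk1 (67.3 FPKM), Gstm2 (31.2 FPKM), Gstt3 (26.1 FPKM), Gsto1 (24.8 FPKM) and Gsta4 (24.1 FPKM), as means over 9 libraries. Gsta4 favours 4-hydroxyalkenals made by lipid oxidation. Of the membrane-bound MGSTs, which belong to a separate protein family, Mgst3 averaged 82.5 FPKM and Mgst1 41.5 FPKM, whereas Mgst2 stayed at 0.0142 to 0.0456 FPKM and failed the rule.

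Among the UGTs, the UGT3 pair led, whose human relatives use sugars other than glucuronic acid. Ugt3a2 had 829, 880 and 754 FPKM in GQYS libraries, 609, 807 and 782 FPKM in IgAN libraries and 547, 917 and 802 FPKM in WT libraries. IgAN replicate 1 and WT replicate 1 were the lowest, and the groups overlapped. Ugt3a1 was at 104, 142 and 93.9 FPKM in GQYS, 77.2, 108 and 129 FPKM in IgAN and 62.1, 129 and 92.9 FPKM in WT libraries, again lowest in replicate 1 of WT and of IgAN.

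Ugt1a7c, from the UGT1 locus where alternative first exons are joined to shared ones, was the most variable of the abundant genes apart from Ugt2b37. It had 73.3, 84.3 and 58.5 FPKM in GQYS libraries, 43.8, 93.8 and 69.5 FPKM in IgAN libraries and 28.7, 102 and 107 FPKM in WT libraries. The lowest values were once more those of WT and IgAN replicate 1. Ugt1a7c carried 97.6% of the UGT1 sum, but 53.7% of its 50-base stretches occur in transcripts of other genes in the GENCODE M21 annotation, so its split from Ugt1a6a and Ugt1a6b depends on counting rules not given in the sources used here.

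**Figure D2:**
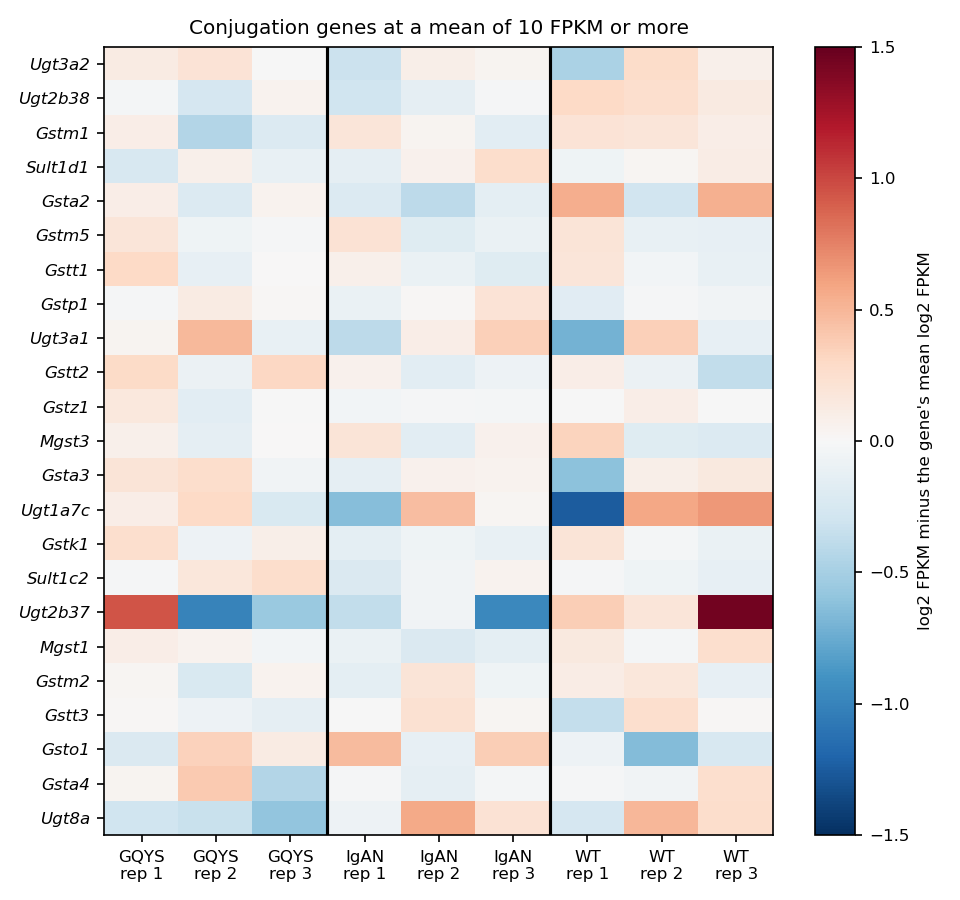
Difference of log2 FPKM from each gene's mean log2 FPKM over 9 libraries for the 23 genes with a mean of at least 10 FPKM, with libraries on the horizontal axis and red above and blue below the mean. Ugt1a7c, Ugt3a2 and Ugt3a1 are lowest in WT replicate 1 and low in IgAN replicate 1, and Ugt2b37 varies most, from 23.9 to 131 FPKM.

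WT replicate 1 was the lowest library for 6 of these 23 genes, 26.1%, and for 36.5% of all 4706 genes with a mean of at least 10 FPKM. Of those 6, 3 were UGTs (of 6 UGTs in the set). GQYS replicate 2 was the lowest for 4 genes, and no other library for more than 3.

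UGT2 enzymes, which conjugate steroids and bile acids among other substrates, were led by Ugt2b38, which made up 87.1% of their sum. Ugt2b38 had 438, 377 and 463 FPKM in GQYS libraries, 364, 407 and 440 FPKM in IgAN libraries and 548, 531 and 491 FPKM in WT libraries. All WT libraries lay above all GQYS and IgAN libraries. The UGT2 sum of 8 genes was 411 to 541 FPKM in GQYS, 407 to 473 FPKM in IgAN and 598 to 638 FPKM in WT libraries, so WT libraries were again apart.

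Ugt2b37 had 92.4, 23.9 and 32.7 FPKM in GQYS libraries, 37.0, 46.2 and 24.6 FPKM in IgAN libraries and 62.1, 54.3 and 131 FPKM in WT libraries. GQYS replicate 1 and WT replicate 3 were high, and the coefficient of variation over 9 libraries, 63.2%, was the highest of the 23 abundant genes. Ugt2b38 and Ugt2b5 share 34.1% and 34.8% of their 50-base stretches with each other, so reads may be split between them. The remaining UGT of note was Ugt8a, which adds galactose to ceramide rather than acting on drugs, at a mean of 15.5 FPKM.

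The sulfotransferases were dominated by Sult1d1, an enzyme with activity toward catecholamines in mouse, which made up 74.5% of the SULT sum. Sult1d1 had 157, 195 and 171 FPKM in GQYS libraries, 168, 193 and 222 FPKM in IgAN libraries and 177, 188 and 199 FPKM in WT libraries. The groups overlapped throughout. Sult1c2 had 57.5, 65.3 and 69.7 FPKM in GQYS libraries, 50.2, 56.1 and 60.5 FPKM in IgAN libraries and 57.3, 55.6 and 53.5 FPKM in WT libraries, with all GQYS libraries above all WT libraries by a narrow gap.

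Sult1a1, a phenol sulfotransferase, and Sult1b1, which acts on thyroid hormones, averaged 2.96 and 1.03 FPKM. Sult5a1 and Sult2b1, a cholesterol sulfotransferase, averaged 0.559 and 0.384 FPKM. Of 16 SULT genes, 9 failed the rule, and Sult1e1 (estrogen sulfotransferase), Sult2a1, Sult2a4 and Sult1c1 were listed at 0 in all libraries, as was Ugt1a5.

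**Figure D3:**
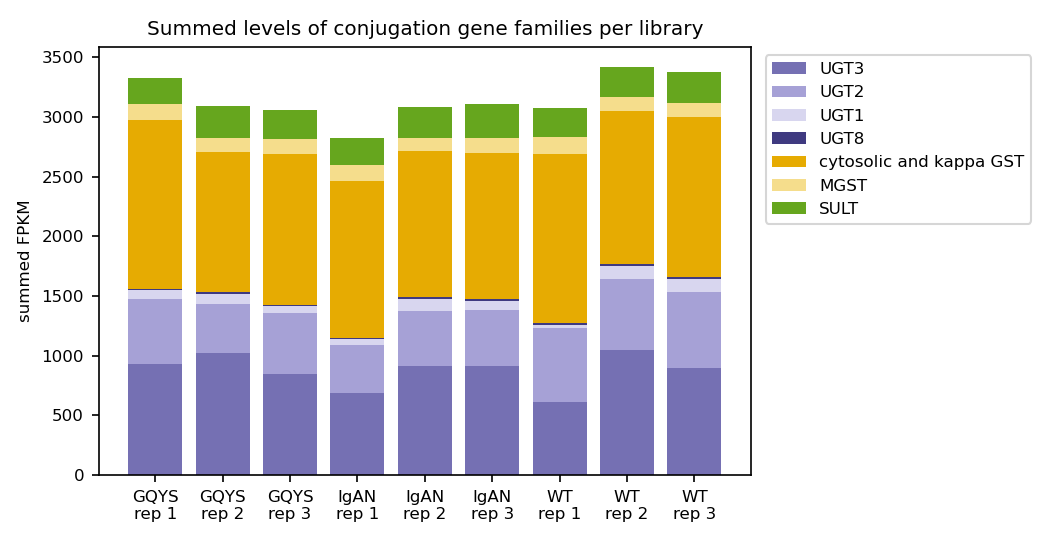
Summed FPKM per family and library, stacked, in GQYS, IgAN and WT libraries. The UGT3 block is the smallest in WT replicate 1 (609 FPKM) and IgAN replicate 1 (686 FPKM), and the UGT2 block is largest in the 3 WT libraries (598 to 638 FPKM).

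Just inside the rule were Gstt4 and Gstp3, with a third-highest value of 0.101 and 0.136 FPKM, and just outside were Ugt1a1 and Sult4a1, at 0.0986 and 0.0651 FPKM. Members lie in clusters: of 60 genes placed on the mouse genome, 43 had another member as a direct neighbour. Levels differed within a cluster, as in Gstm3, at 0.159 FPKM, beside Gstm2 at 31.2 FPKM, and Ugt2a3, at 0.714 FPKM, beside Ugt2b38 at 451 FPKM, as means over 9 libraries. Over 20% of 50-base stretches were shared with other genes in 12 of 44 described genes with transcripts in the annotation. Gsta1 (90.5%) and Ugt1a6b (79.8%) were highest. Abundant genes were among the 12 as well, such as Gsta2 (49.8%, with 36.0% in Gsta1) and Gstp1 (33.7%, in Gstp2). Values of such genes are uncertain, low ones above all.

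Whether the knock-in kidneys differed from wild type in these enzymes was tested in the IgAN against WT comparison. No conjugation gene passed the test: 0 of 32 tested members (at least 1 FPKM in at least 3 libraries) had an adjusted p under 0.05 with limma on log2(FPKM + 1), against a background of 0.353% of all 11617 genes tested. At an unadjusted p under 0.05 there were 9 members, against 10.3% of all genes; 8 of them were lower in IgAN (3.37% of all genes were) and 1 was higher (6.97% of all genes were). By the other tool, voom on the recovered reads, 0 members passed and 8 had an unadjusted p under 0.05. The limma count of 9 dropped to 3 when WT replicate 3 was left out and to 5 when IgAN replicate 3 was. It was 6 without WT replicate 2, IgAN replicate 1 or IgAN replicate 2, and 12 without WT replicate 1. Calls over all genes at adjusted p under 0.05 by limma moved too. They went from 35 higher and 6 lower to 19 and 3 without WT replicate 3, and to 54 and 11 without WT replicate 1. For fits without single libraries, in any comparison, the all-gene share at unadjusted p was not taken. Of the 32 tested members, 7 had FPKM ranges that did not overlap between IgAN and WT, all lower in IgAN. The shares of all tested genes were 14.0%, and 4.80% in that direction. These 7 were Gsta5, Gstp2, Gstz1, Mgst1, Ugt2b37, Ugt2b38 and Ugt2b5. Over the 32 members the median log2 change was -0.06, and over all tested genes it was 0.02.

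**Figure D4:**
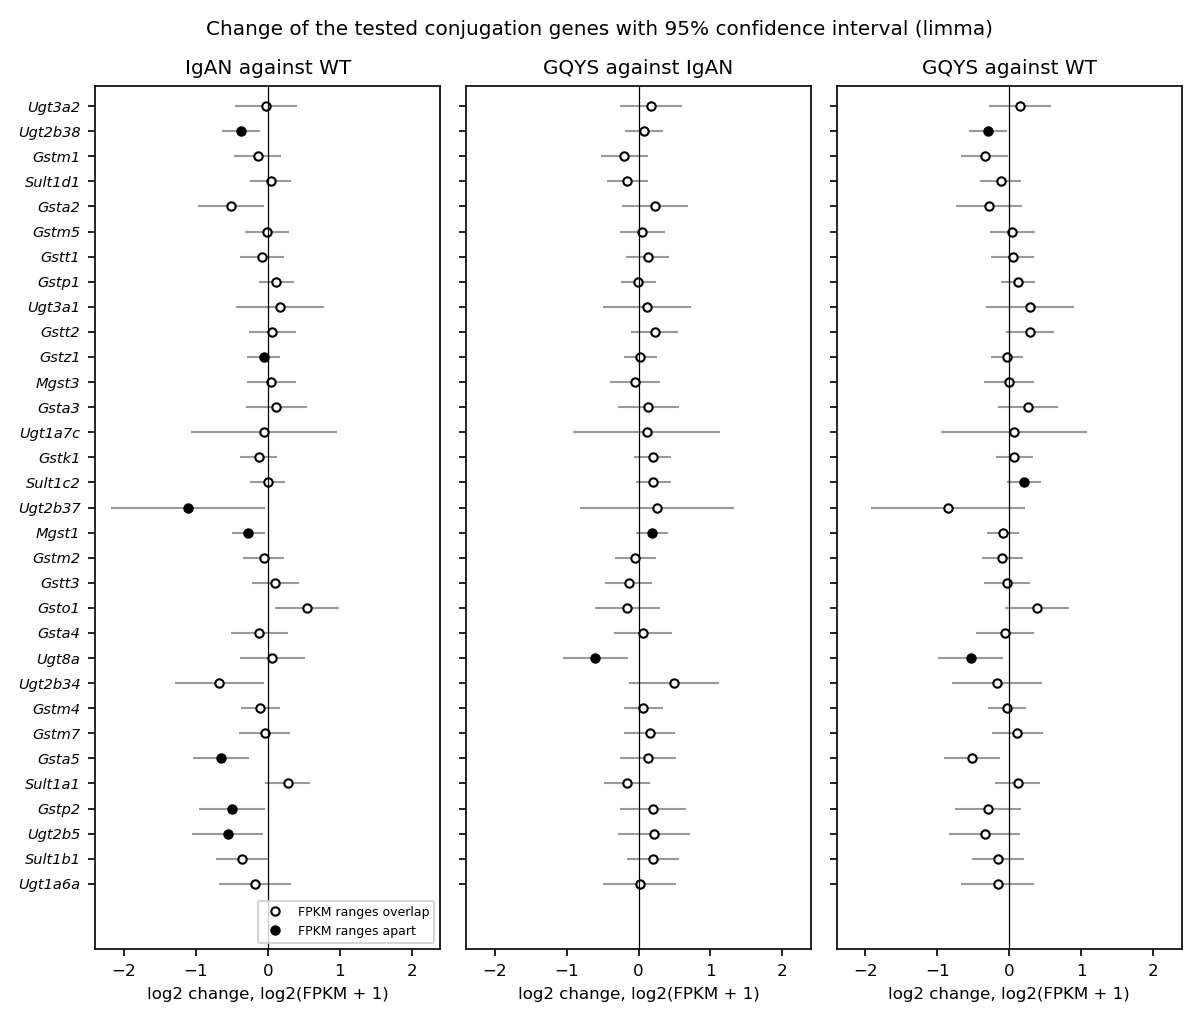
Log2 change, on the log2(FPKM + 1) scale, of the 32 tested genes with 95% confidence interval in each comparison, ordered by mean level; filled points have FPKM ranges that do not overlap. Filled points lie to the left of 0 for 7 genes in IgAN against WT, and none of the genes passed the adjusted threshold.

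The smallest p belonged to Gsta5, a low alpha class gene. Gsta5 had no transcript in the GENCODE M21 annotation, so its sharing of sequence with other genes, Gsta2 among them, was not checked. It had 2.39, 2.30 and 2.22 FPKM in IgAN libraries and 4.68, 2.97 and 5.18 FPKM in WT libraries, on 64 to 144 reads per library over the series. All IgAN libraries lay below all WT libraries. The log2 change was -0.65 ± 0.17 (SE, n = 3 each; 95% interval -1.04 to -0.26), with an adjusted p of 0.183 by limma. Leaving out single libraries gave log2 values of -0.84 to -0.52, and without both WT and IgAN replicate 1 the value was -0.60.

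For Ugt2b38 the log2 change was -0.38 ± 0.12 (SE; limma adjusted p = 0.266), with -0.27 when WT and IgAN replicate 1 were both left out. Mgst1, which detoxifies lipid hydroperoxides at the endoplasmic reticulum, had 38.6, 35.6 and 37.2 FPKM in IgAN libraries and 45.6, 40.5 and 49.2 FPKM in WT libraries. Every IgAN library lay below every WT library, and the log2 change was -0.27 ± 0.10 (SE; limma adjusted p = 0.362).

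The steroid and drug enzyme Ugt2b5 had 2.17, 2.05 and 0.837 FPKM in IgAN libraries and 2.54, 2.79 and 3.21 FPKM in WT libraries. Its mean over 9 libraries was 2.20 FPKM, and 34.8% of its 50-base stretches occur in Ugt2b38, which averaged 451 FPKM. Whether the change of Ugt2b5 is separate from that of Ugt2b38 was not tested. Gstp2, a pi class gene that shares 54.3% of its 50-base stretches with other genes, had 2.17, 2.25 and 1.59 FPKM in IgAN and 2.83, 2.79 and 4.21 FPKM in WT libraries. The log2 changes were -0.56 ± 0.22 for Ugt2b5 and -0.50 ± 0.21 for Gstp2 (SE, n = 3 each; limma adjusted p = 0.396 and 0.418). Ugt2b37 had the widest change, -1.11 ± 0.48 (SE; limma adjusted p = 0.453), with -0.72 without WT replicate 3 and -1.35 at the other end of the fits without single libraries. Gstz1 was apart by a narrow gap, at 83.1, 84.9 and 84.3 FPKM in IgAN and 85.7, 91.7 and 85.5 FPKM in WT libraries, and its log2 change was -0.06 ± 0.10 (SE), or -0.03 without WT replicate 2.

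Gsto1 was the only member with an unadjusted p under 0.05 and a higher value in IgAN, and it is named here after its values were seen. This omega class enzyme transfers thiols and regenerates ascorbate. It had 33.7, 22.2 and 31.2 FPKM in IgAN libraries and 22.9, 15.4 and 20.4 FPKM in WT libraries, so IgAN replicate 2 and WT replicate 1 overlapped. The log2 change was 0.54 ± 0.20 (SE, n = 3 each; limma adjusted p = 0.353), and it was 0.54 without both WT and IgAN replicate 1. Ugt2b34, also named after its values were seen, had 3.12, 5.73 and 7.82 FPKM in IgAN and 6.32, 9.10 and 12.4 FPKM in WT libraries, and its log2 change of -0.67 became -0.37 without IgAN replicate 1 and -0.46 without WT replicate 3. For Gsta2, with values given above, the log2 change was -0.51 ± 0.21 (SE; limma adjusted p = 0.401), with -0.37 without WT replicate 1, -0.78 without WT replicate 2 and -0.14 to -0.78 over all 20 alternatives. Without both WT and IgAN replicate 1, the log2 change was -0.29 for Mgst1, -0.76 for Ugt2b5, -0.62 for Gstp2 and -1.30 for Ugt2b37. Without IgAN replicate 3, the lowest library for Ugt2b5, that gene's log2 change was -0.30 (unadjusted p = 0.128, limma adjusted p = 0.703; adjusted p of 0.0435 to 0.703 over 20 alternatives).

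**Figure D5:**
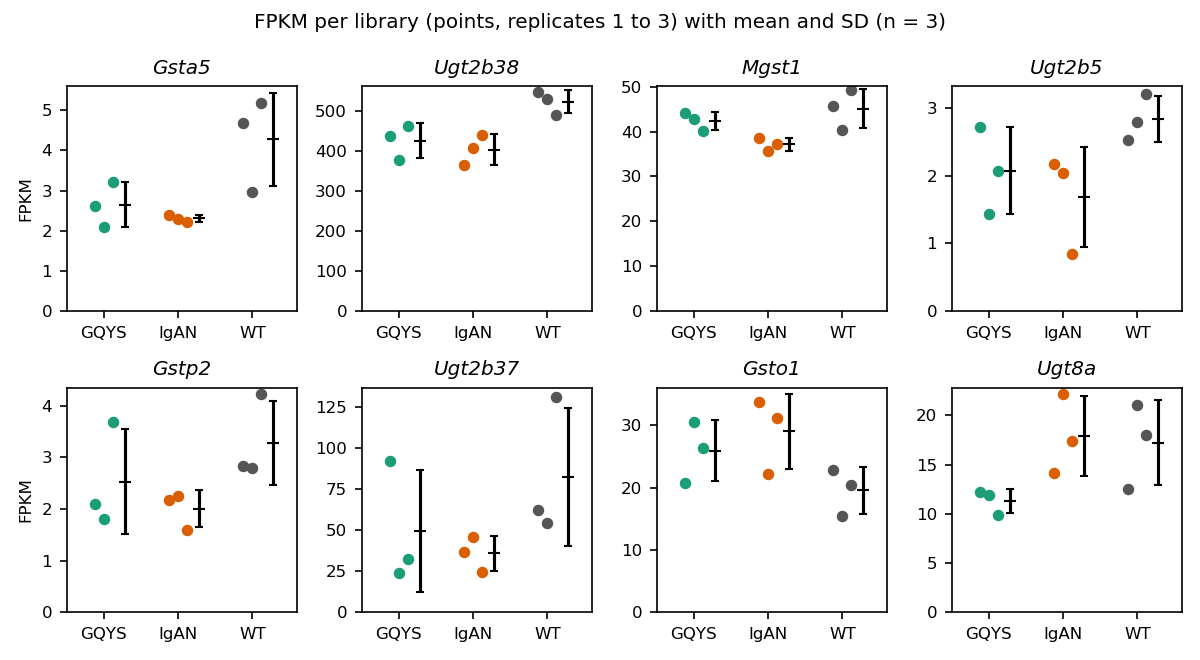
FPKM per library for 8 genes, points for replicates 1 to 3 of GQYS, IgAN and WT, and a bar for the mean with SD (n = 3). IgAN points lie below all WT points for Gsta5, Ugt2b38, Mgst1, Ugt2b5, Gstp2 and Ugt2b37, and GQYS points lie below all IgAN and WT points for Ugt8a.

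By family, 12 of 17 tested GSTs, 1 of 2 MGSTs, 7 of 9 UGTs and 2 of 4 SULTs had a log2 change below 0 in IgAN against WT, with medians of -0.06, -0.11, -0.18 and 0.02. Together 22 of the 32 members lay below 0, against 5265 of all 11617 tested genes. In GQYS against IgAN, 9 of 32 members lay below 0 and 23 above, against 5619 and 5998 of all tested genes. In GQYS against WT, 18 members lay below 0 and 14 above, against 4724 and 6893 of all tested genes. No direction is drawn from these counts, since no member passed the test.

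The effect of the granules on these enzymes was tested in GQYS against IgAN. Again 0 of 32 members passed, against 0.198% of all genes, and 0 passed with voom. At an unadjusted p under 0.05 there was 1 member, Ugt8a, lower in GQYS, against 10.4% of all genes and 4.90% in that direction; voom also gave 1. The limma count was 0 without IgAN replicate 2 or GQYS replicate 3, 2 without IgAN replicate 3 or GQYS replicate 2, and 3 without GQYS replicate 1. FPKM ranges did not overlap for 2 members, Ugt8a (lower in GQYS) and Mgst1 (higher in GQYS), against 19.1% of all genes, 9.29% lower and 9.84% higher. The median log2 change was 0.12 for the 32 members and 0.01 for all tested genes.

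Ugt8a had 12.2, 11.9 and 9.93 FPKM in GQYS libraries and 14.1, 22.2 and 17.4 FPKM in IgAN libraries. All GQYS libraries lay below all IgAN libraries, with IgAN replicate 1 nearest. The log2 change was -0.60 ± 0.20 (SE, n = 3 each; 95% interval -1.05 to -0.15; limma adjusted p = 0.321). Without both WT and IgAN replicate 1 it was -0.75, with an adjusted p of 0.0518 by limma, and over 20 alternatives the adjusted p lay between 0.0276 (library quality weights) and 0.843. Ugt8a has no 50-base stretch shared with another gene.

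Mgst1 had 44.1, 42.9 and 40.1 FPKM in GQYS libraries and 38.6, 35.6 and 37.2 FPKM in IgAN libraries. The GQYS values lay above all IgAN values and within or below the WT range of 40.5 to 49.2 FPKM. The log2 change was 0.18 ± 0.10 (SE, n = 3 each; limma adjusted p = 0.611).

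The third comparison, GQYS against WT, set the treated knock-in against wild type. Here 0 of 32 members passed, against 0% of all 11617 genes, and 0 passed with voom. There were 4 members that had an unadjusted p under 0.05, Gsta5, Gstm1, Ugt2b38 and Ugt8a, all lower in GQYS, against 4.43% of all genes and 1.10% in that direction; voom also gave 4. The limma count was 1 without WT replicate 3, 2 without WT replicate 2 or GQYS replicate 2, and 7 without GQYS replicate 1. FPKM ranges did not overlap for 3 members, Ugt2b38 and Ugt8a (lower in GQYS) and Sult1c2 (higher in GQYS), against 9.74% of all genes, 2.61% lower and 7.14% higher. The median log2 change was -0.03 for the 32 members and 0.03 for all tested genes. Since it shares its WT libraries with the first comparison and its GQYS libraries with the second, it is not independent of either.

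Ugt2b38 had a log2 change of -0.30 ± 0.12 (SE) and Sult1c2 one of 0.20 ± 0.11 (SE, n = 3 each; limma adjusted p = 0.999 for both). For Ugt8a, at 12.5, 21.1 and 18.0 FPKM in WT libraries, the log2 change was -0.54 ± 0.20 (SE; limma adjusted p = 0.999), with -0.74 when WT replicate 1 was left out. Gsta5 had 2.63, 2.09 and 3.21 FPKM in GQYS libraries, overlapping the lowest WT library at 2.97 FPKM, and its log2 change was -0.52 ± 0.17 (SE). Gstm1 was at -0.34 ± 0.15 (SE) on the log2 scale and at -0.21 without GQYS replicate 2, and 3 of 9 fits without single libraries kept an unadjusted p under 0.05.

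The 13 described members below the test's limit were also fitted after lowering the filter to 0.1 FPKM, and none had an unadjusted p under 0.05 in any comparison. The smallest adjusted p among the 13 was 0.511 (limma), for Sult2b1 in GQYS against IgAN. Gstm3 and Sult2a3 were higher in every IgAN library than in every WT library. Gstm3 had 0.165 to 0.251 FPKM in IgAN and 0.0816 to 0.132 FPKM in WT libraries. Sult2a3 had 0.215 to 0.287 FPKM in IgAN and 0.0354 to 0.187 FPKM in WT libraries. They rest on 2 to 10 and 0 to 14 reads per library over the series.

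Genes listed as feeding these enzymes, handling their products or regulating them came from 8 lists of 74 genes, of which 68 were tested. By limma, 0 of the 68 passed in any comparison. At an unadjusted limma p under 0.05 there were 3 in IgAN against WT (2 higher, 1 lower). There were 11 in GQYS against IgAN (7 higher, 4 lower) and 8 in GQYS against WT (6 higher, 2 lower). The shares of all tested genes were 10.3%, 10.4% and 4.43% in that order, with 3.37%, 4.90% and 1.10% lower. The share higher was 6.97% in IgAN against WT. Over all tested genes in GQYS against IgAN, 569 of the 1211 at this unadjusted p were lower and the rest higher. In GQYS against WT, 128 of 515 were lower and the rest higher. Medians of the log2 change were 0.01, -0.00 and 0.03 for these comparisons in that order.

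For glutathione supply, Gss (glutathione synthetase) and Gclm (the modifier subunit of glutamate-cysteine ligase) were the most abundant, at means of 182 and 138 FPKM. Gclc, the catalytic subunit and named after its values were seen, had 55.7, 115 and 58.1 FPKM in GQYS libraries, 185, 111 and 102 FPKM in IgAN libraries and 70.4, 99.8 and 67.2 FPKM in WT libraries. IgAN libraries lay above all WT libraries, with IgAN replicate 1 highest, and the GQYS range overlapped both. The log2 change was 0.71 ± 0.31 (SE) in IgAN against WT and -0.82 ± 0.31 (SE) in GQYS against IgAN, with limma adjusted p of 0.451 and 0.377.

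Donor supply for the UGTs was represented by Ugp2 (57.0 FPKM) and Ugdh (46.8 FPKM), which make UDP-glucose and UDP-glucuronic acid, and for the SULTs by Papss2 (77.2 FPKM), a PAPS synthase, and Bpnt1 (50.5 FPKM), which clears a by-product of sulfation. None of the 5 and 6 tested genes of these lists passed. In the mercapturate pathway, Acy3 (an aminoacylase) averaged 1594 FPKM and Ggt1 (gamma-glutamyl transferase) 487 FPKM, and 0 of 16 genes passed. At an unadjusted limma p under 0.05, 4 of the 16 were higher and 2 lower in GQYS against IgAN, where 10.4% of all genes were called. In GQYS against WT 2 were higher and 1 lower, where 4.43% of all genes were called. The count was 0 in IgAN against WT, where 10.3% of all genes were called. Other phase II transferases were led by Inmt (an indolethylamine methyltransferase) and Glyat (glycine N-acyltransferase), at 839 and 454 FPKM. Export was led by Abcg2 and Abcc2 at 134 and 63.1 FPKM. Arsb and Arsg led the list named deconjugation, at 56.8 and 6.72 FPKM. Whether Arsb and Arsg act on phase II conjugates was not examined.

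Arsg had the smallest adjusted p of the lists in GQYS against IgAN. This arylsulfatase had 7.82, 9.02 and 7.61 FPKM in GQYS libraries and 4.79, 4.27 and 6.28 FPKM in IgAN libraries, without overlap, and its log2 change was 0.59 (limma adjusted p = 0.230). Among regulators, Hnf4a, a nuclear receptor of the proximal tubule, averaged 181 FPKM, and 0 of 14 tested genes of this list passed.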

How the data were processed

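Per the labels' protocols, mouse kidney RNA was taken up in TRIzol and a VAHTS Universal V6 RNA-seq kit was used for the libraries. FPKM values deposited by the authors, in 1 table, cover 26139 symbols and 9 libraries, 3 per group. Build GRCm39 and the tools HISAT2, HTSeq, fastp, R 3.2.0 and DESeq2 are listed, per the submitters' processing notes, with no roles. Not given in the sources used here: annotation, strand setting and handling of shared reads. Overlapping, antisense and near-identical genes are therefore uncertain. Because FPKM is scaled by the library total, a shift in very abundant genes moves every other gene's value.

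Here, whole reads were recovered from the steps of low FPKM values for 26139 genes (tolerance 0.03 reads), giving 30564947 to 38161564 reads per library. Of these genes, 19882 had reads in 4 or more libraries. The 2342 genes at 0 in all libraries were set to 0, and a gene read in only 1 library fits by construction. The full count is therefore no check of the method. Genes with at least 1 FPKM in at least 3 libraries, 11617 in all, were tested with limma 3.58.1 in R 4.3.3 on log2(FPKM + 1), a pseudocount of 1, over all 9 libraries with a mean-variance trend, p-values adjusted by Benjamini-Hochberg within each comparison and called under 0.05. The model was also run on simulated data, with the outcome not reported here, so how often a true change would pass is not stated. A fold change on this scale understates the change of low genes. Alternatives covered pseudocount, filter, scaling, replicate block, 2-group fits, library quality weights, voom on the recovered reads and each library left out; a combined filter and pseudocount change and a fit without both first libraries were added after seeing the data.

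Genes were named where their FPKM ranges did not overlap, where they were the 6 most abundant of their family, where they lay next to the rule's limit, or where they were the 2 most abundant of a pathway list; other names are marked. One gene chosen this way is not reported here. Members and lists were chosen with earlier results of these data known. RefSeq start regions (GRCm38.p6) and GENCODE M21 transcripts served for sequence only, since the table's build differs. Python 3.11.15 and matplotlib 3.10.9 drew the figures.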

Additional observations from a re-analysis of the deposited data

How the results depend on the processing

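The count of 0 members past the threshold held in all 3 comparisons under every alternative run except library quality weights. With those weights it was 2 in IgAN against WT (Gsto1 higher, Ugt2b5 lower in IgAN), 1 in GQYS against IgAN and 1 in GQYS against WT (Ugt8a lower in GQYS both times), while calls over all genes grew to 655, 404 and 53; the cause was not tested. Leaving out single libraries left the counts at 0. The mean summed FPKM of the described genes, 3152, was 3150 under median-ratio scaling and 3119 to 3193 without single libraries. Of 17 gene changes, each under 20 alternatives, none reversed, and 336 of 340 values kept their side of the threshold. Whether replicate numbers pair libraries could not be settled. Same-numbered libraries of different groups correlated at -0.36 to 0.58, with 6 of 9 pairs above 0.1. The pair at 0.58 was WT and IgAN replicate 1, which also stood apart on the first principal component. Of 9 libraries, 4 had their highest correlation with a same-numbered library, and 2 did so within each of the other groups. With a replicate block the count stayed at 0 in each comparison, and 10, 2 and 5 members had an unadjusted p under 0.05. Low genes such as Gsta5 rest on few reads, 64 to 144 per library.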
